A study of Mus musculus with 18 samples.

Results

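Pituitary glands of 2 mouse knockout lines were compared directly on expression arrays, namely mice without the long noncoding RNA of the locus that hosts miR-205 (labelled lncKO) and mice without the microRNA itself (labelled miR-205 KO). The comparison rests on 6 of the 18 arrays of the series, the 3 pituitary lncKO arrays (samples 13 to 15) and the 3 pituitary miR-205 KO arrays (samples 16 to 18), chosen by tissue and genotype labels and not by any measured value. The mice are labelled C57BL/6, female and 5 to 6 weeks old, in both groups and in the 3 wild-type pituitary arrays (samples 10 to 12), which are given below as levels only. The other 9 arrays hold skin of the same 3 genotypes. The labels do not say how either deletion was made or whether a line descends from a single founder. Nor do they tie each sample to its own animal, and the p-values therefore speak only of the spread among these samples, part of which may be technical.

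MicroRNAs pair through their seed with messenger RNAs and lower the stability and translation of those they bind. The host transcript of miR-205 is spliced from the same locus as the microRNA hairpin, so a deletion of the one can leave the other in place or remove it, depending on the allele. The anterior pituitary holds somatotrophs, lactotrophs, gonadotrophs, thyrotrophs and corticotrophs, each named for the hormone it secretes, together with stem and folliculostellate cells, and the posterior lobe holds axon endings and glia.

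The microRNA missing in 1 of the 2 groups is shown first, since it is the molecule that defines that group. Its hairpin lies in RefSeq on the minus strand at chr1:193507463-193507530 of GRCm38.p6, and the capitals mark the arms that become the mature microRNAs.
mmu-mir-205 hairpin: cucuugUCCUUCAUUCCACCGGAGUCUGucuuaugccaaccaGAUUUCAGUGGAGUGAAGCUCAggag
In the mature sequences the capitals mark the seed, bases 2 to 8.
mmu-miR-205-5p: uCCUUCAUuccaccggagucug
mmu-miR-205-3p: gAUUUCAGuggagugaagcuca
The arrays held no named probe set for the microRNA or for its host transcript, so neither deletion could be checked and both genotypes are those of the labels.

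All values are log2 of the intensities that the authors deposited, differences are lncKO minus miR-205 KO, errors beside differences are standard errors, and errors beside levels are SDs (n = 3 arrays per group). Median intensities lay between 87 and 90 in lncKO and between 88 and 91 in miR-205 KO, and log2 intensities correlated across genes at 0.9916 to 0.9932 among lncKO arrays, 0.9917 to 0.9924 among miR-205 KO arrays and 0.9882 to 0.9914 between the groups. Among the hormone genes that define the gland, Gh, Prl and Cga lay above 19 on every one of the 6 arrays, so the tissue label fits its markers. The sex label went against the Y-linked gene Uty, which lay at 10.98 to 10.99 in lncKO and 10.87 to 11.19 in miR-205 KO, or Kdm5d, at 7.81 to 8.12 and 7.75 to 8.07. Eif2s3y, also Y-linked, lay at 9.13, 9.86 and 9.64 in lncKO and 10.32, 10.27 and 10.26 in miR-205 KO, without overlap but short of the threshold (difference -0.74 ± 0.21, limma adjusted p = 0.215). The part of sex in the results was not tested.

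The pituitaries of the knockouts differed in few single genes. Limma called 27 of 19572 named probe sets (0.138%) at an adjusted p under 0.05, 16 of them higher and 11 lower in lncKO, each by 2.19-fold to 5.69-fold and each without overlap between the 6 arrays. The lowest adjusted p was 0.0153, and 118 probe sets lay under 0.1. At an unadjusted p under 0.05 there were 1097 probe sets higher (5.6%) and 1133 lower (5.79%) in lncKO, and the median difference over all probe sets was -0.006. Arrays of the groups did not overlap for 1465 probe sets that were higher (7.49%) and 1640 that were lower (8.38%) in lncKO. The calls needed all 6 arrays. Leaving out sample 15 left 6 calls, sample 16 left 1, and sample 13, 14, 17 or 18 left 0, with Cxcl9 without sample 15 the only one of the 27 still called, while all 27 kept their direction. Setting intensities below 16 to 16 left 4 calls, none of them among the 27. A fit with all 9 pituitary arrays ended the calls for Col1a1, Lamb3 and Acadvl, and a fit with all 18 those for Col1a1, Acadvl, Dynlt1c and Dynlt1f. A pseudocount of 16 ended those for Ctse, Gm10591, Slc5a8, Klk1b22, Klk1b26, Lamb3, Ppp1r21 and Acvr1c, and quantile normalization those for Acadvl and Acvr1c. Adjusting over unnamed probe sets too ended that for Acvr1c. The total count of calls moved both ways. It was 57 with the 9 arrays, 75 with the 18 and 144 with a variance trend and robust estimation. With quantile normalization it was 25 and with the pseudocount 22.

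**Figure D1:**
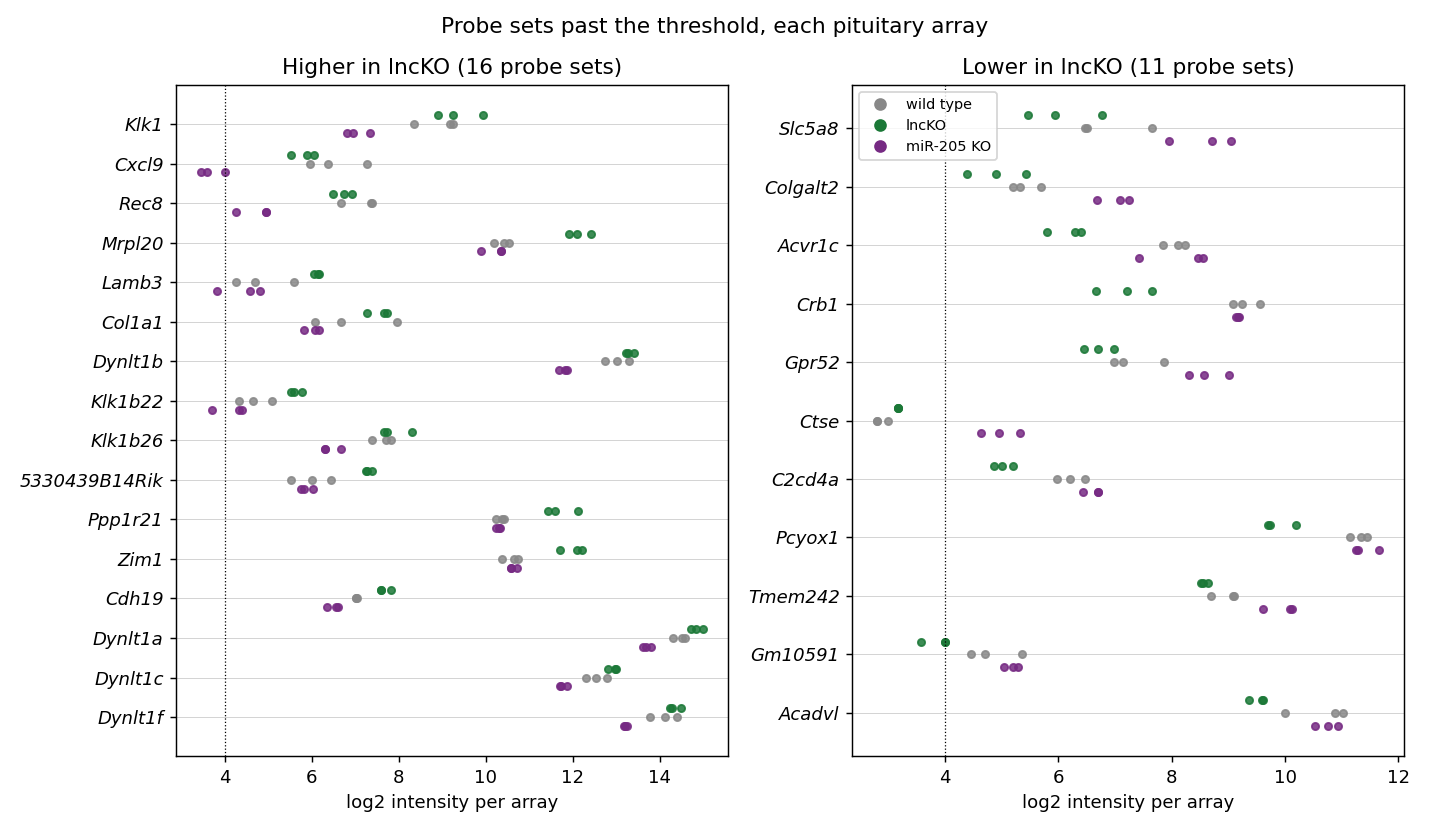
Log2 intensity on each of the 9 pituitary arrays for the 16 probe sets higher and the 11 lower in lncKO than in miR-205 KO. Points are arrays, the dotted line marks an intensity of 16, and for each gene the 3 green lncKO points lie apart from the 3 purple miR-205 KO points, while the grey wild-type points lie with one group, with the other or between them.

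Wild-type levels stood with either knockout about equally often among the 27. With the distance between the knockout means set to 1, the wild-type mean lay within 0.33 of lncKO, or beyond it, for 12 genes, likewise at miR-205 KO for 11, and in between for 4. Over all named probe sets the corresponding shares were 38.4% and 49.6%.

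The largest excess in lncKO belonged to Klk1, the tissue kallikrein, a serine protease that releases kinins. Its arrays lay at 8.89, 9.24 and 9.94 in lncKO and at 6.81, 6.95 and 7.33 in miR-205 KO, with wild type at 8.92 ± 0.51. All lncKO arrays were thus over the highest miR-205 KO array, and the wild-type mean lay near that of lncKO. The difference was 2.33 ± 0.27, or 5.02-fold (adjusted p = 0.0153). Klk1b26 and Klk1b22, of the mouse-specific expansion of this gene, followed with differences of 1.47 ± 0.22 and 1.49 ± 0.22 (adjusted p = 0.0386 for both). Klk1b26 lay at 8.30, 7.73 and 7.66 in lncKO against 6.30, 6.30 and 6.67 in miR-205 KO. Klk1b22, a dim probe set named here after its values were seen, lay at 5.58, 5.78 and 5.52 against 4.32, 4.39 and 3.70.

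The kallikrein genes stand side by side on chromosome 7, at places 704 to 728 among the measured genes of that chromosome (gene order of RefSeq GRCm38.p6). Of the 13 measured genes named Klk1 or Klk1b, 13 had a positive difference, from 0.13 to 2.33 with a median of 0.58. Of these, 9 were higher in lncKO without overlap and 3 passed the threshold. Over all named probe sets 7.49% were higher without overlap and 0.138% passed. The 13 include the 3 calls described above, so these counts are no separate support for them. Of the 12 other kallikrein genes of the cluster 6 had a positive difference, the median was 0.04 and 0 passed. Klk11 (1.07 ± 0.28) and Klk8 (0.45 ± 0.19) were higher without overlap, and Klk14 (-0.42 ± 0.19) was lower without overlap. Klk4, Klk5, Klk9, Klk10, Klk12, Klk14 and Klk15 had means below an intensity of 16 in both knockouts, as had Klk1b7-ps. At such levels a difference may not show, so the parts of the cluster are not compared on equal terms. Probe sets of such similar genes can read each other's transcripts, so which copies differed is uncertain. Pieces of 3 promoters show how alike the copies are upstream of their start sites (RefSeq windows of GRCm38.p6), not in the transcripts that the probes read. Each piece begins at the longest run shared by all, 14 bases in capitals.
Klk1 (chr7:44225234-44225353, plus strand): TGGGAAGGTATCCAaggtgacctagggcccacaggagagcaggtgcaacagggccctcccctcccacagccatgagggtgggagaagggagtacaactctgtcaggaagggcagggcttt
Klk1b22 (chr7:44112457-44112576, plus strand): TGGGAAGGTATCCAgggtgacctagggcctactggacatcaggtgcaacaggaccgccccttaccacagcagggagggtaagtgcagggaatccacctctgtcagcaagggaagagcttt
Klk1b26 (chr7:44012477-44012596, plus strand): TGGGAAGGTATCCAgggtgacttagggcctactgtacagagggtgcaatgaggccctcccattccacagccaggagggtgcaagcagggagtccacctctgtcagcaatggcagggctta
Set side by side from that run and without gaps, these pieces were 80.8% identical between Klk1 and Klk1b22, 81.7% between Klk1 and Klk1b26, and 80% between the Klk1b genes.

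**Figure D2:**
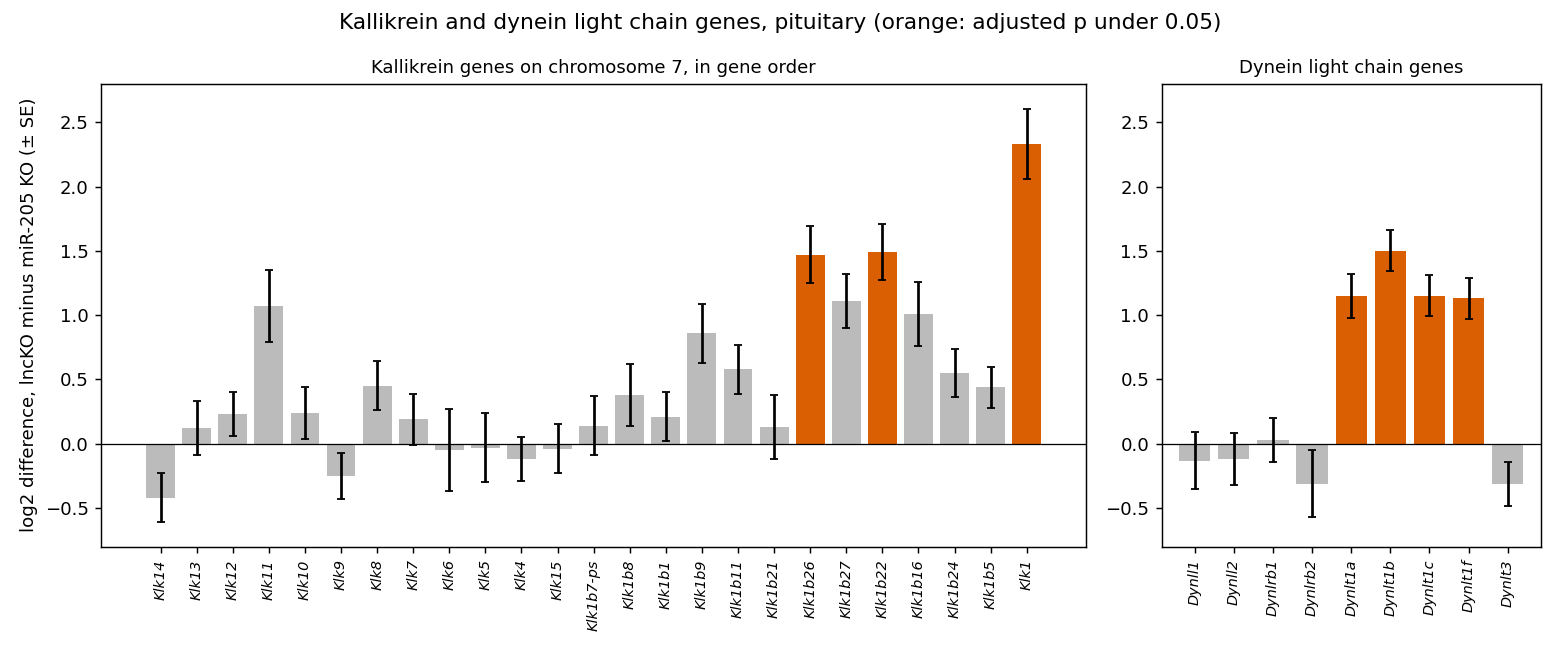
Log2 difference between lncKO and miR-205 KO pituitary (bars, ± SE) for 25 kallikrein genes in their order on chromosome 7 and for 9 dynein light chain genes. Orange bars passed the threshold, 3 among the Klk1 and Klk1b genes and all 4 measured Dynlt1 copies, while the other dynein light chain genes lay between -0.31 and 0.03.

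A second family of copies was higher in lncKO throughout. Dynlt1 encodes Tctex-type light chain 1 of cytoplasmic dynein, the motor that carries cargo toward microtubule minus ends, and the mouse genome holds several nearly identical copies at the start of chromosome 17. Dynlt1b lay at 13.40, 13.27 and 13.22 in lncKO and at 11.69, 11.82 and 11.87 in miR-205 KO, with a difference of 1.5 ± 0.16 (adjusted p = 0.0153). Dynlt1a, Dynlt1c and Dynlt1f gave differences of 1.15 ± 0.17, 1.15 ± 0.16 and 1.13 ± 0.16 (adjusted p = 0.0386 for each), Dynlt1f being named after its values were seen. These 4 copies are 4 readings of sequences that the probes may not tell apart. The 5 other measured light chain genes of dynein, Dynlt3 among them, ranged from -0.31 to 0.03 and 0 passed. The wild-type means of the 4 copies lay between both knockouts, nearer to lncKO, as with Dynlt1b at 13.01 ± 0.27. A stretch of 102 bases upstream of Dynlt1c is shown because the promoter window of Dynlt1f holds it without a single change.
Dynlt1c (chr17:6601619-6601720, plus strand, GRCm38.p6): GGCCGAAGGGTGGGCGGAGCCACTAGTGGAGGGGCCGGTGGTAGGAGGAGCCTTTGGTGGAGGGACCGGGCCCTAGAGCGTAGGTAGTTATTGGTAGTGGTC

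Tmem242, which encodes a transmembrane protein, stands close to the Dynlt1 copies and differed the other way. It lay at 8.55, 8.65 and 8.52 in lncKO and at 10.08, 9.62 and 10.12 in miR-205 KO, and wild type lay at 8.96 ± 0.23. The difference was -1.36 ± 0.19 (adjusted p = 0.0379). Tmem242 holds place 8 and the 4 Dynlt1 copies places 17 to 22 among the measured genes of chromosome 17. With Ppp1r21, at place 959, this chromosome carried 6 of the 27 calls against 4.93% of the probe sets tested. The 6 count the 4 Dynlt1 copies one by one, although their probe sets may read shared sequence. Chromosome 1, which carries the miR-205 locus, likewise held 6 calls against 5.56% of the probe sets.

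Of the 14 measured genes listed as neighbours of the locus, Lamb3 alone passed, against 0.138% of all named probe sets. Lamb3 encodes the beta 3 chain of laminin-332, a basement membrane protein, and is the second measured gene from the host transcript. Its arrays lay at 6.17, 6.04 and 6.15 in lncKO and at 4.81, 4.58 and 3.81 in miR-205 KO. Wild type, at 4.84 ± 0.68, stood near miR-205 KO, so that the lncKO arrays were the high ones. The difference was 1.72 ± 0.25 (adjusted p = 0.0386), and it ranged from 1.19 to 1.93 over 14 alternatives, of which 5 kept it past the threshold. Sample 18 lay below an intensity of 16 for this gene. The 13 other neighbours ranged from -0.23 to 0.68, with a lowest adjusted p of 0.366. Camk1g and Plxna2, which flank the host gene, gave 0.25 ± 0.22 and -0.18 ± 0.19, and Sertad4, at 9 genes away, gave 0.68 ± 0.26. The other chromosome 1 calls, Gpr52, Colgalt2, Crb1, Ctse and Cdh19, lay 297 to 531 measured genes from the locus.

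Several single genes completed the set higher in lncKO. Rec8, a cohesin subunit best known from meiosis, lay at 6.75, 6.92 and 6.48 in lncKO and at 4.25, 4.95 and 4.95 in miR-205 KO (difference 2.00 ± 0.23, adjusted p = 0.0153). Wild type, at 7.14 ± 0.41, stood with lncKO. Mrpl20, a protein of the large subunit of the mitochondrial ribosome, lay at 11.91, 12.42 and 12.10 in lncKO and at 9.88, 10.35 and 10.36 in miR-205 KO (1.95 ± 0.21, adjusted p = 0.0153). Here wild type, at 10.38 ± 0.18, stood with miR-205 KO. Ppp1r21, a regulatory subunit of protein phosphatase 1, and Zim1, an imprinted zinc finger gene, had the same pattern, with wild type at 10.34 ± 0.09 and 10.60 ± 0.19 beside miR-205 KO at 10.29 ± 0.04 and 10.62 ± 0.08. Their lncKO levels were 11.71 ± 0.37 and 12.00 ± 0.27, for differences of 1.42 ± 0.21 and 1.38 ± 0.19 (adjusted p = 0.0386 and 0.0355). Cdh19, a cadherin of glial cells of nerves, lay at 7.67 ± 0.14 in lncKO and 6.50 ± 0.14 in miR-205 KO, on either side of wild type (1.17 ± 0.17, adjusted p = 0.0386). The 8 measured markers of oligodendrocytes and Schwann cells had mean levels of 6.24 to 6.98 on lncKO and 6.30 to 7.02 on miR-205 KO arrays, which overlapped.

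Col1a1, a chain of type I collagen, lay at 7.27, 7.67 and 7.73 in lncKO and at 6.07, 6.17 and 5.81 in miR-205 KO. The wild-type arrays, at 6.66, 7.95 and 6.07, spanned nearly both. The difference was 1.54 ± 0.19 (adjusted p = 0.0237). Of the 11 measured markers of pericytes and fibroblasts 10 had a positive difference with a median of 0.48, although Col1a1 was the only one called. Their mean level was 8.58 to 9.02 on lncKO and 8.06 to 8.16 on miR-205 KO arrays, without overlap. Both the count and this mean include Col1a1 itself. In whole glands more cells of a type and more RNA per cell cannot be told apart, and the part of these cells in the Col1a1 result was not tested. Of 11 measured cartilage and bone genes 3 were higher and 0 lower at an unadjusted p under 0.05 (median 0.09), and their mean level was 4.72 to 4.82 on lncKO and 4.42 to 4.48 on miR-205 KO arrays. Bglap, which encodes osteocalcin, gave 1.34 ± 0.24 (adjusted p = 0.0728) and Ibsp, a sialoprotein of bone, 0.98 ± 0.25 (adjusted p = 0.164), and their part was not tested either. Cxcl9, a chemokine that interferon gamma induces, and named here after its values were seen, lay at 5.88, 6.04 and 5.52 in lncKO and at 3.46, 4.00 and 3.58 in miR-205 KO (2.14 ± 0.21, adjusted p = 0.0153). All miR-205 KO values stood at an intensity of 16 or less, where 24.6% to 25.3% of the probe sets of these arrays lie. Lymphocyte markers, 10 of them measured, had mean levels of 4.97 to 5.09 on lncKO and 4.73 to 4.78 on miR-205 KO arrays, and their part in the Cxcl9 result was not tested. Among the 22 measured interferon-stimulated genes 2 were higher and 2 lower at an unadjusted p under 0.05, and the median was -0.02. The predicted gene 5330439B14Rik, also chosen after its values were seen, gave 1.44 ± 0.17 (adjusted p = 0.0153).

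Slc5a8 led the genes lower in lncKO. It encodes a sodium-coupled transporter of monocarboxylates such as lactate and short-chain fatty acids. Its arrays lay at 5.46, 6.77 and 5.95 in lncKO, at 8.71, 9.04 and 7.95 in miR-205 KO and at 6.51, 6.48 and 7.65 in wild type. The miR-205 KO arrays were the high ones, above every array of both other groups. The difference was -2.51 ± 0.35, or 5.69-fold (adjusted p = 0.0386). Colgalt2, an enzyme that puts galactose on collagen, had the same order, with 4.91 ± 0.52 in lncKO, 7.01 ± 0.29 in miR-205 KO and 5.41 ± 0.26 in wild type (-2.10 ± 0.27, adjusted p = 0.0244). So had Gpr52, an orphan receptor coupled to cyclic AMP, with 6.72 ± 0.26, 8.63 ± 0.35 and 7.33 ± 0.47 (-1.91 ± 0.22, adjusted p = 0.0153).

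Acvr1c, Crb1, Pcyox1, Acadvl and C2cd4a were lower in lncKO with wild type near miR-205 KO. Acvr1c, the type I receptor ALK7 for activin-like and nodal ligands, lay at 5.81, 6.41 and 6.29 in lncKO, at 8.47, 8.56 and 7.43 in miR-205 KO and at 8.06 ± 0.20 in wild type (-1.99 ± 0.30, adjusted p = 0.0462). Crb1, a crumbs polarity protein of epithelia, lay at 7.21, 7.66 and 6.66 in lncKO and at 9.18, 9.17 and 9.13 in miR-205 KO, with wild type at 9.29 ± 0.24 (-1.98 ± 0.24, adjusted p = 0.0194). For both genes the lncKO arrays lay below every wild-type and every miR-205 KO array. Pcyox1, which degrades prenylated cysteine, lay at 9.88 ± 0.28 against 11.40 ± 0.22, beside wild type at 11.31 ± 0.16 (-1.53 ± 0.20, adjusted p = 0.0343). Acadvl, the very long chain acyl-CoA dehydrogenase of fatty acid oxidation, lay at 9.52 ± 0.14 against 10.74 ± 0.20 (-1.22 ± 0.18, adjusted p = 0.0386), and C2cd4a, a nuclear C2-domain protein, at 5.02 ± 0.18 against 6.62 ± 0.15 (-1.60 ± 0.18, adjusted p = 0.0153). Their wild-type means, 10.64 ± 0.55 and 6.22 ± 0.25, stood with miR-205 KO. The dim probe sets of Ctse, which encodes cathepsin E, and Gm10591 were named after their values were seen, with -1.80 ± 0.20 and -1.32 ± 0.18 (adjusted p = 0.0153 and 0.0386). Ctse lay at 3.17 on each lncKO array, at 2.81 to 3.00 in wild type and at 4.64, 4.95 and 5.32 in miR-205 KO, so the miR-205 KO arrays were the high ones and both other groups lay below an intensity of 16.

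Among the genes that just missed the threshold were Slc38a6 (-1.64 ± 0.26), of a family of amino acid transporters, and Maob (-1.23 ± 0.19), a monoamine oxidase. Epm2a (-1.06 ± 0.17), a glycogen phosphatase, and Doc2b (1.68 ± 0.26), a calcium sensor of exocytosis, missed it too. Each had an adjusted p of 0.0522 and was not called, and Vps37b, Prok1 and Cdca3 had the same value. Doc2b lay at 11.03, 10.33 and 10.37 in lncKO, at 8.42, 9.04 and 9.23 in miR-205 KO and at 8.46, 7.37 and 7.76 in wild type (7.86 ± 0.55). The means of both knockouts stood above that of wild type, while the miR-205 KO and wild-type arrays overlapped.

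The same comparison in skin shares no array with the one in pituitary. The Y-linked genes named above differed between the tissues, with means of 3.21 and 3.30 for Uty and 2.41 and 2.48 for Eif2s3y in lncKO and miR-205 KO skin, so tissue and the presence of Y-linked transcripts cannot be told apart in what follows. In skin limma called 0 probe sets, with a lowest adjusted p of 0.0827 and 382 higher and 360 lower at an unadjusted p under 0.05. Of the 27 pituitary genes 19 (70.4%) had the same sign in skin, against 48.9% of all named probe sets. The 19 count the 4 Dynlt1 copies, Klk1 and Klk1b26 one by one, although such probe sets may read shared sequence. At an unadjusted p under 0.05 in skin lay 8 of these 19, against 742 of all 19572 probe sets in either direction. The 8 were Ctse, Tmem242, Pcyox1, Col1a1 and the 4 Dynlt1 copies, so that 4 of the 8 may be readings of shared sequence. Ctse lay at 4.18 ± 0.53 in lncKO skin and 7.13 ± 0.68 in miR-205 KO skin, with wild-type skin at 4.55 ± 0.90 (difference -2.95 ± 0.36). Tmem242 gave -1.26 ± 0.21 in skin, close to its pituitary value, from 8.44 ± 0.17 and 9.71 ± 0.15. Pcyox1 gave -1.16 ± 0.23, and Dynlt1a, Dynlt1b, Dynlt1c and Dynlt1f gave 0.86 ± 0.25, 0.73 ± 0.24, 0.93 ± 0.27 and 0.75 ± 0.29, all short of the threshold in skin (adjusted p of 0.304 or more).

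Other called genes had values near 0 in skin. Rec8 gave 0.02 ± 0.22 there, Cxcl9 -0.09 ± 0.28 and Ppp1r21 0.01 ± 0.23. Rec8 lay at 4.03 ± 0.05 in lncKO skin and 4.01 ± 0.27 in miR-205 KO skin, about an intensity of 16, where a difference may not show. Lamb3, abundant in epidermis, lay at 9.28 ± 0.34 and 9.15 ± 0.17 in the skin of lncKO and miR-205 KO, a difference of 0.13 ± 0.24. Gpr52 pointed the other way at 0.80 ± 0.32 (limma unadjusted p = 0.0283). A test of the difference between the tissues themselves, on 12 arrays, called 0 of 19572 probe sets (0%), with 1504 at an unadjusted p under 0.05. Its lowest adjusted p, 0.0601, was shared by Gpr52 (-2.71), Doc2b (2.13), Rec8 (1.98), Cxcl9 (2.23) and C2cd4a (-1.72). Of these genes, Doc2b was not called in pituitary. Like Rec8, C2cd4a lay about an intensity of 16 in skin, at 3.96 ± 0.24 in lncKO and 3.83 ± 0.22 in miR-205 KO. The count of calls in this test became 8 without the skin lncKO sample 4, 8 without the pituitary lncKO sample 15 and 1 without the skin lncKO sample 5. It was 11 with intensities held at 16 or more and 2 with the wild-type arrays in the fit.

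**Figure D3:**
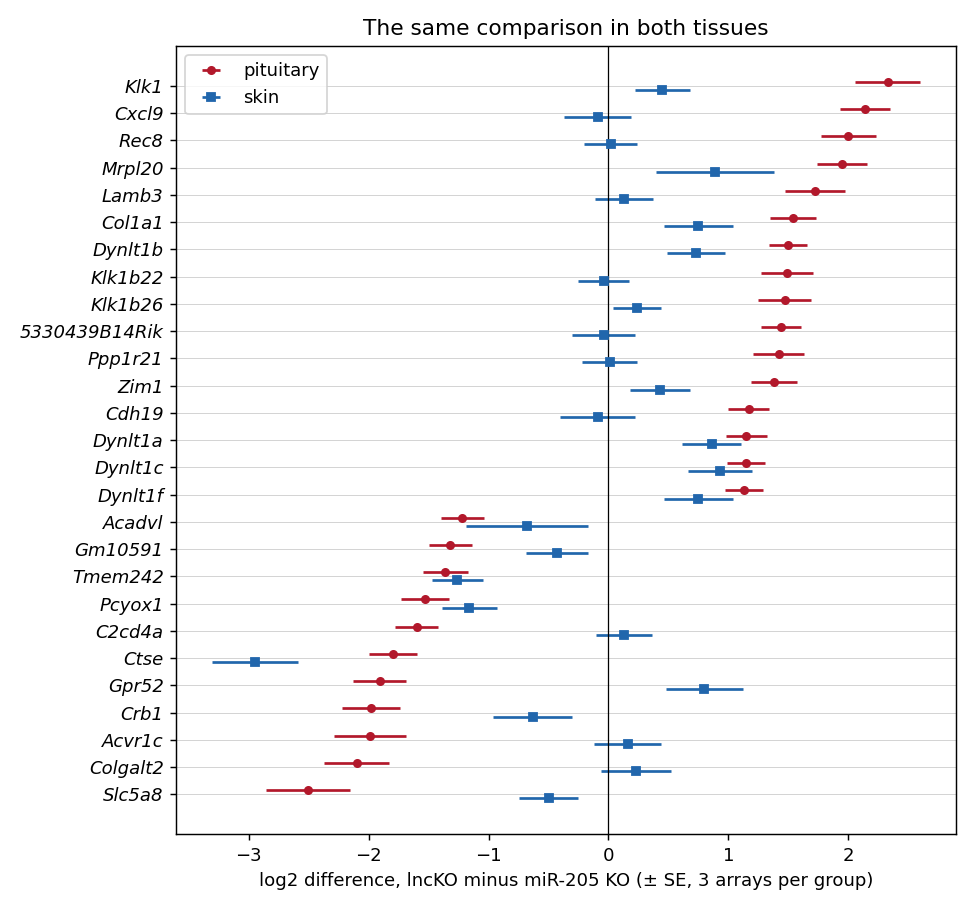
Log2 difference between lncKO and miR-205 KO (± SE, 3 arrays per group) in pituitary (red circles) and in skin (blue squares) for the 27 probe sets called in pituitary. Tmem242, Pcyox1 and the Dynlt1 copies lie on the same side in both tissues, while Rec8, Cxcl9 and Ppp1r21 lie near 0 in skin. In the skin of both knockouts Rec8 was at about an intensity of 16.

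Among 34 gene lists the members called were Col1a1 and Lamb3, and 32 lists had none. Where lists are described below, counts are therefore at an unadjusted p under 0.05, to be read against the 5.6% of all probe sets higher and the 5.79% lower, and the single genes did not pass the threshold. The lists were chosen with earlier results of these arrays known and overlap in part.

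Immediate early genes are transcribed within minutes of a stimulus from factors already present in the cell. Of 22 measured, 21 had a negative difference, 18 of them at an unadjusted p under 0.05. Without overlap between the groups 15 were lower, against 8.38% of all named probe sets. The median was -1.19, the lowest of the lists described here. Nr4a1, an orphan nuclear receptor that corticotropin-releasing hormone induces in corticotrophs, lay at 11.80, 10.71 and 12.90 in lncKO and at 15.21, 14.49 and 14.13 in miR-205 KO. Wild type, at 15.22, 14.23 and 14.40, overlapped with miR-205 KO and not with lncKO. The difference was -2.81 ± 0.47, or 6.99-fold, with an adjusted p of 0.0618. Fos and Fosb, subunits of the transcription factor AP-1, gave -2.52 ± 0.50 and -2.38 ± 0.45 (adjusted p = 0.0955 and 0.0851). Fos lay at 7.55, 8.46 and 9.70 in lncKO, at 11.05, 11.83 and 10.38 in miR-205 KO and at 9.61, 9.50 and 11.50 in wild type, so wild type overlapped with both. Dusp1, a phosphatase that switches off MAP kinases, gave -2.13 ± 0.42 (adjusted p = 0.0949) from 13.86, 14.51 and 15.92 against 16.69, 17.11 and 16.88. Nr4a2, a relative of Nr4a1, gave -1.85 ± 0.45 (adjusted p = 0.155).

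The lncKO arrays differed among themselves in this list. The mean level of the 22 genes was 9.12, 9.03 and 9.95 on samples 13, 14 and 15, against 10.66, 10.82 and 10.52 on samples 16 to 18 and 10.49, 9.69 and 10.21 in wild type. Sample 15 was the highest lncKO array for 18 of the 22 genes, and without it the median was -1.49 and 3 members passed the threshold. The wild-type mean lay between the knockouts for 12 genes, above both for 5 and below both for 5. Jun and Jund, further subunits of AP-1, gave 0.06 ± 0.24 and -0.14 ± 0.21.

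Pieces of 3 promoters of this list are shown for the half-site of the cyclic AMP response element, TGACG or its complement CGTCA, in capitals, all upstream of the start site in GRCm38.p6 (RefSeq).
Fos (chr12:85473740-85473889, plus strand): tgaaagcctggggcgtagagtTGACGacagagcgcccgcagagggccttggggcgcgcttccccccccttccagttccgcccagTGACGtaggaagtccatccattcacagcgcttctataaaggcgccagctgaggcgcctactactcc
Fosb (chr7:19310046-19310195, minus strand): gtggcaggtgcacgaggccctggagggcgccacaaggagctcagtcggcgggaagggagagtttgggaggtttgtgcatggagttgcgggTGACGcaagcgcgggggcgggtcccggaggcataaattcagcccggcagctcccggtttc
Nr4a1 (chr15:101266696-101266845, plus strand): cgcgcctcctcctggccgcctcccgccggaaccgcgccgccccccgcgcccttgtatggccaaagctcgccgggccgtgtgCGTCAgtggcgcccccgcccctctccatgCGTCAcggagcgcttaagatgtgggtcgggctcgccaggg
Searched on both strands over whole windows of 300 bases, the 5 letters occurred in 16 of 24 windows of 18 listed genes (66.7%) and in 6837 of 32851 windows of all genes (20.8%). The match describes the letters of these windows, and binding was not measured.

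Glucocorticoid-responsive genes pointed the other way. Of 21 measured, 17 had a positive difference, 9 were higher and 2 lower at an unadjusted p under 0.05, and the median was 0.61. Arrays did not overlap for 8 that were higher and 2 that were lower, against 7.49% and 8.38% of all named probe sets. Sgk1, a kinase that glucocorticoids induce and that regulates ion transport, lay at 10.09, 10.04 and 10.43 in lncKO, at 9.04, 9.19 and 9.16 in miR-205 KO and at 8.48, 8.28 and 8.34 in wild type. The order lncKO, miR-205 KO, wild type held without overlap for this gene. The difference was 1.06 ± 0.18 (adjusted p = 0.0618). Fkbp5, a cochaperone that dampens the glucocorticoid receptor, lay at 15.57, 15.54 and 15.03 in lncKO, at 14.43, 14.23 and 14.18 in miR-205 KO and at 13.78 ± 0.31 in wild type (1.10 ± 0.20, adjusted p = 0.0728). Sult1a1, a sulfotransferase, gave 1.74 ± 0.31 (adjusted p = 0.0700) with wild type, at 7.58 ± 0.11, beside miR-205 KO at 7.64 ± 0.31. For 15 of the 21 genes the wild-type mean lay below both knockouts. Dusp1 belongs to this list too and was its lowest member.

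Clock genes cycle over the day in most tissues. Of 19 measured, 7 were higher and 3 lower in lncKO at an unadjusted p under 0.05, with a median of 0.23. Dbp, a transcription factor driven directly by the clock, lay at 16.25, 15.47 and 16.00 in lncKO and at 14.70, 14.96 and 14.66 in miR-205 KO, and the 3 wild-type arrays spread from 13.54 to 15.14. The difference was 1.14 ± 0.22 (adjusted p = 0.0893). Nr1d1, the repressor REV-ERB alpha, gave 1.02 ± 0.25 (adjusted p = 0.164), Bhlhe41, another repressor of the loop, 0.68 ± 0.19, and Cry1, a cryptochrome, -0.71 ± 0.20 (adjusted p = 0.219 and 0.221). The hour of dissection is not in the labels, and its part in the clock, glucocorticoid-responsive and immediate early values was not tested.

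**Figure D4:**
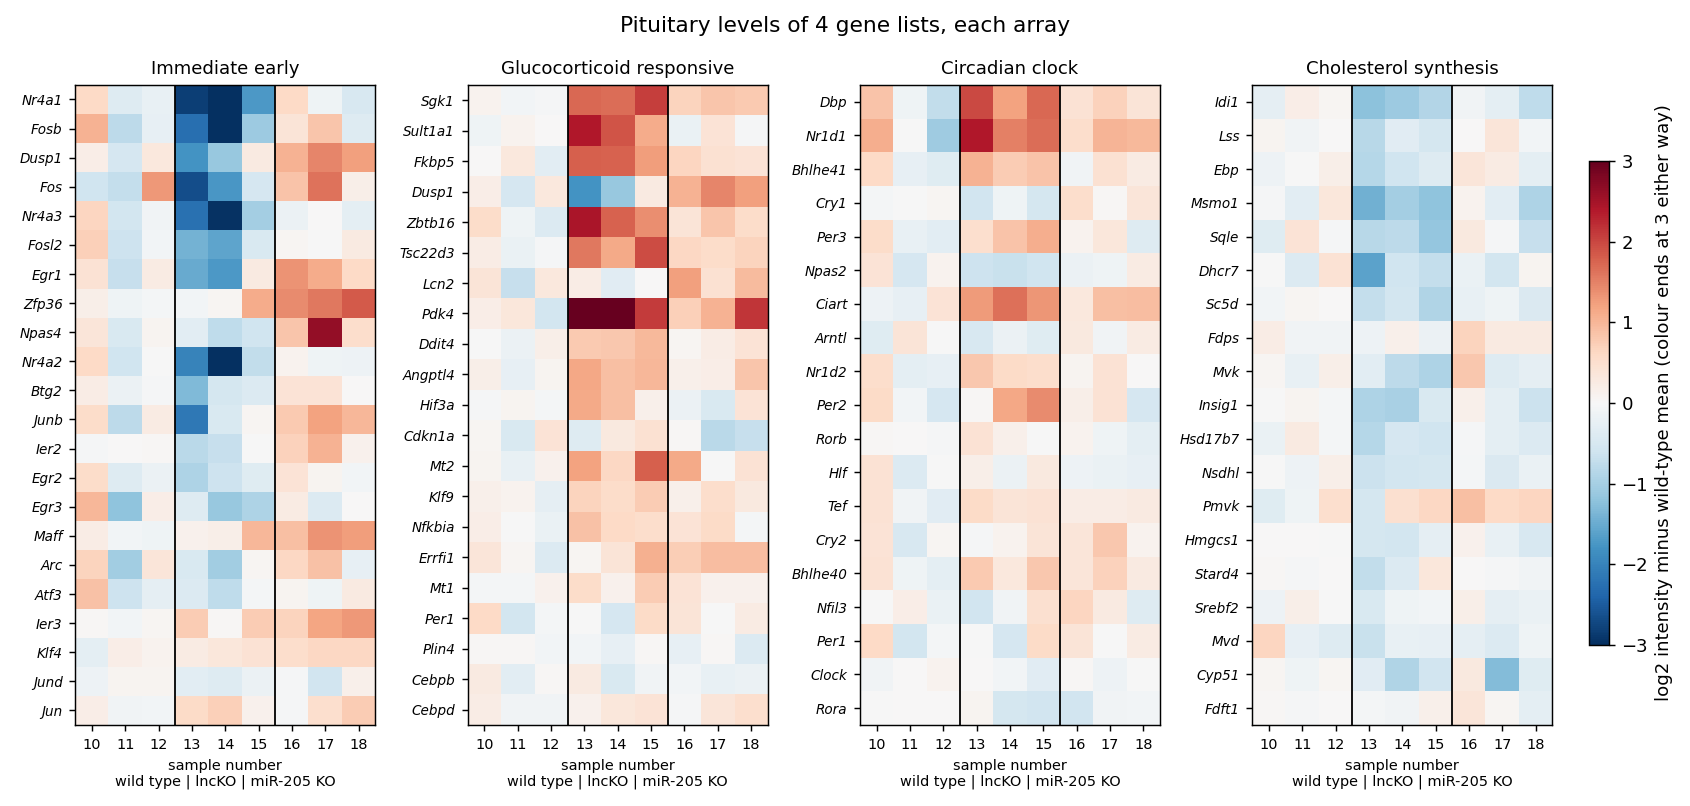
Log2 intensity minus the wild-type mean of each gene on the 9 pituitary arrays for the immediate early, glucocorticoid-responsive, clock and cholesterol lists, genes ordered by unadjusted p. Columns are samples 10 to 18, blue lies below and red above wild type, and samples 13 and 14 are bluest for the immediate early genes while sample 15 is paler.

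The cholesterol synthesis list holds enzymes on the way from acetyl-CoA to cholesterol, together with the regulators Srebf2 and Insig1 and the transport protein Stard4. Of 19 measured, 19 had a negative difference, from -0.84 to -0.04. The median was -0.47, and 9 lay at an unadjusted p under 0.05. Msmo1, a sterol demethylase, lay at 6.92, 7.35 and 7.16 in lncKO and at 8.46, 8.05 and 7.43 in miR-205 KO (-0.84 ± 0.26, adjusted p = 0.258), and Idi1, the isomerase of isopentenyl diphosphate, gave -0.69 ± 0.21 (adjusted p = 0.252). Lss, the lanosterol synthase, and Ebp, a sterol isomerase, gave -0.66 ± 0.20 and -0.71 ± 0.22. Within miR-205 KO, sample 16 was the highest array in this list, with a mean level of 10.26 against 9.91 and 9.81 on samples 17 and 18, and 9.36 to 9.64 on the lncKO arrays. Without sample 16 the count at an unadjusted p under 0.05 was 4 and the median -0.33. The wild-type mean lay above both knockouts for 13 of the 19.

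Cell cycle genes ranged from dim to bright. Of 26 measured, 10 were higher in lncKO at an unadjusted p under 0.05 and 0 lower, with a median of 0.50. Ccnb2, a mitotic cyclin, lay at 6.15, 6.52 and 6.92 in lncKO and at 5.32, 5.58 and 5.73 in miR-205 KO (0.99 ± 0.22, adjusted p = 0.133), and Kif20a, a kinesin of cytokinesis, gave 0.97 ± 0.23 (adjusted p = 0.145). Wild type lay above both knockouts in 18 of the 26. Only 12 members had a mean level of at least 6, of which 4 lay at an unadjusted p under 0.05 and whose median was 0.11. With intensities held at 16 or more the count was also 4. Without sample 14 it was 6, the median was 0.25 without sample 17 and 0.27 without sample 15, and the count ranged from 6 to 14 over the 6 arrays left out in turn.

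**Figure D5:**
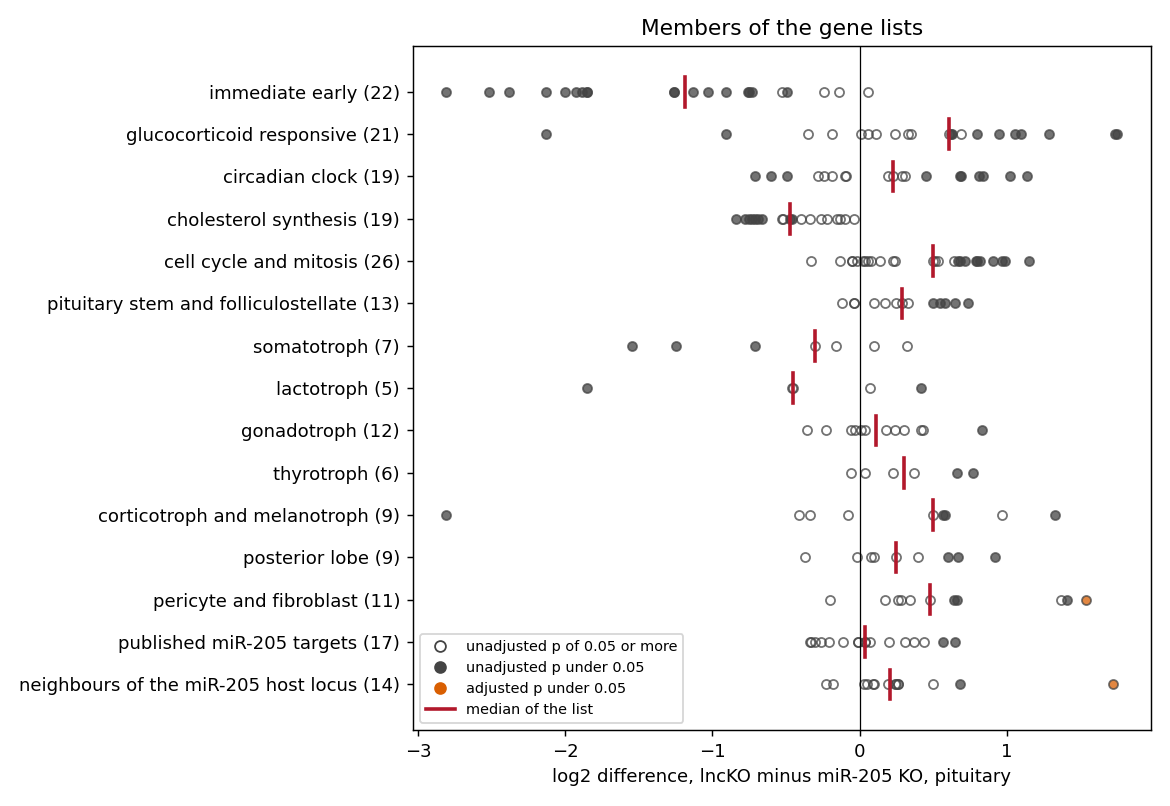
Log2 difference between lncKO and miR-205 KO pituitary for each measured member of 15 lists (circles, number measured in brackets) with the median of the list (red bar). The immediate early list lies farthest to the left with a median of -1.19, the glucocorticoid-responsive list lies to the right at 0.61, and orange marks Col1a1 and Lamb3, the members past the threshold.

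The pituitary hormones themselves did not pass. All 7 hormone genes read had small positive differences, with a lowest adjusted p of 0.164. That value was for Tshb, the beta chain of thyrotropin, at 17.04, 17.04 and 16.66 in lncKO and 16.07, 16.37 and 15.98 in miR-205 KO, without overlap (0.77 ± 0.19), and wild type, at 16.87 ± 0.11, stood with lncKO. Trhr, the receptor for thyrotropin-releasing hormone, gave 0.66 ± 0.23 (adjusted p = 0.325). Pomc, the precursor of corticotropin, gave 0.50 ± 0.25, Fshb 0.43 ± 0.23 and Lhb 0.18 ± 0.26, which encode the beta chains of the gonadotropins. Gh, Prl and Cga gave 0.10 ± 0.16, 0.07 ± 0.16 and 0.04 ± 0.16 (adjusted p of 0.868 or more). These genes stood near the highest intensities of the arrays, where a difference may not show.

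Among somatotroph genes the somatostatin receptors had the lowest differences, and Gh, near the highest intensities of the arrays, is not set against them. Sstr5 and Sstr2, receptors through which somatostatin restrains hormone release, lay lower in lncKO without overlap. Sstr5 lay at 6.54, 7.71 and 7.58 in lncKO against 9.19, 8.94 and 8.37 in miR-205 KO (-1.55 ± 0.32, adjusted p = 0.105), and Sstr2 at 5.46, 6.69 and 6.17 against 7.75, 7.12 and 7.19 (-1.25 ± 0.30, adjusted p = 0.156). Their wild-type means, 9.10 ± 0.26 and 8.45 ± 0.39, lay above both knockouts. Ghrhr, the receptor that drives growth hormone release, gave 0.32 ± 0.21, and Esrrg, an orphan nuclear receptor, -0.71 ± 0.20 (adjusted p = 0.217). Over the 25 measured receptors for hypothalamic and peripheral hormones 3 were higher and 3 lower at an unadjusted p under 0.05, with a median of -0.07. Drd2, the dopamine receptor of lactotrophs, gave 0.42 ± 0.17, Gnrhr, the gonadotropin-releasing hormone receptor, 0.24 ± 0.29, and Avpr1b, a vasopressin receptor of corticotrophs, -0.34 ± 0.25.

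Corticotroph genes were mixed. Tbx19, the factor that switches on Pomc, lay at 13.56, 13.94 and 14.03 in lncKO and at 12.82, 12.16 and 12.56 in miR-205 KO, with wild type at 12.15 ± 0.55, and missed the threshold closely (1.33 ± 0.22, adjusted p = 0.0588). Crhr1, the receptor for corticotropin-releasing hormone, gave 0.58 ± 0.18 (adjusted p = 0.281) and Pax7, which marks melanotrophs, 0.57 ± 0.22. With Nr4a1 in the same list the 9 measured members counted 3 higher and 1 lower. Cpe, a carboxypeptidase that trims prohormones in granules, gave 0.71 ± 0.19 (adjusted p = 0.185), from 16.60 ± 0.21 against 15.89 ± 0.18. Among gonadotroph genes Inhbb, a subunit of inhibin and activin, gave 0.83 ± 0.19 (adjusted p = 0.132).

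Stem and folliculostellate markers counted 5 higher and 0 lower of 13 measured, with a median of 0.29. The median was 0.15 without sample 18 and 0.19 without sample 15. Sox2, the factor that marks pituitary stem cells, lay at 11.98, 11.86 and 11.50 in lncKO, at 11.10, 11.39 and 11.09 in miR-205 KO and at 10.71 ± 0.10 in wild type (0.58 ± 0.19, adjusted p = 0.296). The lncKO arrays were above the miR-205 KO arrays, and these above the wild-type mean. Rbpms, Cpxm2 and Krt18 gave 0.74 ± 0.18, 0.65 ± 0.18 and 0.50 ± 0.17 (adjusted p = 0.163, 0.209 and 0.305). Of the 9 posterior lobe genes 3 were higher and 0 lower, among them Vim, an intermediate filament gene of glia and other cells (0.92 ± 0.20, adjusted p = 0.123), and Oxt, which encodes oxytocin (0.60 ± 0.22, adjusted p = 0.356). The mean level of these 9 genes was 7.11, 6.53 and 6.34 on samples 13, 14 and 15 and 6.33 to 6.4 on the miR-205 KO arrays, so sample 13 was high and sample 15 lay within miR-205 KO. The part of posterior lobe tissue in these values was not tested.

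Published targets of miR-205 spread to both sides. Of 17 measured, 9 had a positive and 8 a negative difference, from -0.34 to 0.65, with a median of 0.04, and 0 passed the threshold. Vegfa, the vascular endothelial growth factor, lay at 10.87, 10.87 and 10.73 in lncKO and at 10.23, 10.20 and 10.09 in miR-205 KO (0.65 ± 0.16, adjusted p = 0.164), and Smad4, the shared mediator of TGF-beta and activin signals, at 13.19, 13.10 and 13.04 against 12.61, 12.49 and 12.53 (0.57 ± 0.16, adjusted p = 0.216). For both genes the arrays did not overlap. Wild type lay between the knockouts for Vegfa, at 10.50 ± 0.07, and beside miR-205 KO for Smad4, at 12.69 ± 0.05. Zeb1, a repressor of epithelial genes, gave 0.07 ± 0.19. Lrp1, a scavenger receptor, and Inppl1, a lipid phosphatase, gave 0.44 ± 0.25 and 0.31 ± 0.25, while Bcl2, which protects from cell death, and the receptor Erbb3 gave -0.34 ± 0.21 and -0.30 ± 0.20. The 10 remaining targets lay between -0.33 and 0.37.

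The counts of further lists are again at an unadjusted p under 0.05. Of 15 measured lineage transcription factors 5 were higher and 0 lower (median 0.06), among them Tbx19 and Sox2 of the lists above. The exocytosis list counted 1 higher and 2 lower of 22 (median -0.13), and the calcium and potassium channel list 2 higher and 3 lower of 30 (median -0.12). Cacna1a, the pore of P/Q-type calcium channels, gave -0.77 ± 0.18 (adjusted p = 0.142). Chaperones of the endoplasmic reticulum counted 1 higher and 1 lower of 19 (median -0.09). Endothelial markers counted 1 higher and 0 lower of 11, macrophage markers 1 higher and 0 lower of 11, and neuronal markers 1 higher and 2 lower of 13.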

How the data were processed

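RNA of skin and pituitary was measured on 18 Clariom S arrays, per the labels. The authors deposited 1 intensity per probe set and array, linear whole numbers from 4 to 1243875, for 22206 probe sets. How they corrected the background, summarised and normalized is not given in the sources used here, and the labels' extraction text speaks of ear for the pituitary too. Of the probe sets 19572 carried 1 gene symbol, updated by gene ID through RefSeq GRCm38.p6, and 2634 without one were left out. No more than 5.49% of values were identical between any 2 arrays. Intensities were log2 transformed without pseudocount or further normalization. The test was limma 3.58.1 in R 4.3.3 (lmFit and eBayes, two-sided, Benjamini-Hochberg over the 19572, threshold 0.05) on the 6 arrays alone, with 4 residual degrees of freedom, and tested on simulated data. Every adjusted p is from limma, and the number of arrays limits the precision. Skin was fitted likewise on 6 arrays, and the difference between tissues as an interaction on 12.

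The genes named were the 12 highest and 12 lowest calls with a mean of at least 6 in the higher group (filled by smallest p, with predicted genes such as Gm and Rik used only when no others were left), up to 4 members per list by smallest p, hormones with their receptors, all targets and all locus neighbours. The comparison, the members of the lists and this rule were chosen with earlier results of these data known. For genes with several probe sets the brightest stood for the gene in lists. Alternatives were other fits, normalizations, low-value treatments and leaving out each array.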

Additional observations from a re-analysis of the deposited data

How the results depend on the processing

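No paired analysis was possible because sample numbers do not recur between groups. The count of 27 calls became 57 with all 9 pituitary arrays in the fit, 75 with all 18 (24 and 23 of the 27 among them), 4 with intensities held at 16 or more, 89 with only the 10808 probe sets of mean log2 intensity of at least 6, and 144 with a variance trend and robust estimation. It was 25 with quantile normalization, 34 with median centring and 22 with a pseudocount of 16. Leaving out each array in turn gave 0 to 6. All of the 27 that could be tested kept their direction in each of these alternatives. With 18 arrays the clock count was 4 and the stem and folliculostellate count 3. The cell cycle count was 4 with the floor and 4 with the level filter, and 6 to 14 with an array left out, where the cholesterol count was 4 to 10. The difference between tissues called 2 with the wild-type arrays in the fit, 11 with the floor, and 0 to 8 with an array left out (8 without skin lncKO 4, 8 without pituitary lncKO 15 and 1 without skin lncKO 5). The floor gives flat values to dim probe sets and the level filter leaves fewer to adjust for. The cause was not tested for any of these changes in count. With 3 arrays per group the median standard error of a difference was 0.20.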
